A study of Mus musculus with 4 samples.

Results

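The genes of respiratory complex I, NADH:ubiquinone oxidoreductase, were examined in neural progenitor cells of the mouse neocortex with and without Mcph1. Members were all features of the deposited table whose gene symbol starts with Nduf. There were 44 of them among 11160 features, 37 under subunit symbols and 7 under Ndufaf symbols, which name assembly factors, and all 44 passed the filter on low values. Cells came from the dorsal telencephalon of C57BL/6J embryos at embryonic day 12.5 and were grown as neurospheres, free-floating balls of dividing cells, with FGF, N2, B27 and insulin. The groups were 2 wild-type (WT) libraries and 2 libraries labelled Mcph1 KO, a full knockout of the gene for microcephalin. Cultures started from single embryos were pooled within genotype, so each library is a pool, and its spread within a group is a spread between pools. Nothing in the labels says which part of Mcph1 was deleted.

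Complex I is the entry point of electrons from NADH into the mitochondrial respiratory chain, and it couples their transfer to ubiquinone to the pumping of protons. Its peripheral arm reaches into the matrix and carries the flavin and the iron-sulfur clusters, and its membrane arm pumps. Mammals build it from core subunits shared with bacteria, of which the membrane-bound ones are encoded in mitochondrial DNA, and from supernumerary subunits that surround the core. Assembly factors help to put the modules together and are absent from the finished enzyme. Neural progenitors draw energy from glycolysis as well as from respiration.

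Whole reads could be recovered from the deposited values, 7109365 in WT 1, 22347416 in WT 2, 10936719 in KO 1 and 5975471 in KO 2. Of these, 46111, 133748, 47884 and 31387 fell on complex I genes, a share of 0.649% in WT 1, 0.598% in WT 2, 0.438% in KO 1 and 0.525% in KO 2. Every member had at least 57 reads in every library. Levels are given as scaled CPM, counts per library size after the libraries were brought to a common scale. A fold change is KO-labelled minus WT on the log2(value + 1) scale, and its test is limma with Benjamini-Hochberg adjustment over 10976 features at a threshold of 0.05. Mcph1 itself had 21.1 CPM in WT 1, 21.6 CPM in WT 2, 19.5 CPM in KO 1 and 20.3 CPM in KO 2 (log2 fold change -0.10, SE 0.24, adjusted p = 0.922). A count over the whole gene does not check the deletion, so the group is called KO-labelled. Of 12 progenitor markers 12 were measured, with Sox2 between 372 and 478 CPM. Their summed level was 13252 CPM in WT 1, 13635 CPM in WT 2, 6596 CPM in KO 1 and 9355 CPM in KO 2, a sum carried mostly by Fabp7 and Vim. By gene the list was mixed, with 7 negative and 5 positive estimates and a median of -0.27. KO 1 and KO 2 were each lower than either WT library for 5 of 12, against 20.0% of all features. They were each higher for 1, against 21.1% of all features. The 6 oligodendrocyte lineage markers summed to 987, 972, 642 and 951 CPM in WT 1, WT 2, KO 1 and KO 2. KO 1 was lowest for 5 of 6, against 25.9% of all features. Their median relative to WT was -0.85 in KO 1 and 0.05 in KO 2. The 6 astrocyte markers differed between the WT libraries, with sums of 2220.5, 1024, 1363 and 1906 CPM in the same order. Of other lists, 0 of 6 microglia and 0 of 5 endothelial and blood markers had a row in the table. The neuron markers, 9 of 12 measured, summed to 895 and 1084 CPM in WT, 1971 CPM in KO 1 and 845 CPM in KO 2, so KO 1 stood apart. The part of these marker differences in the results was not tested. Features without a gene symbol took 11.9% to 13.9% of reads in WT 1, WT 2 and KO 1 and 21.8% in KO 2. In bulk RNA, fewer cells of a type and less RNA per cell cannot be told apart.

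Complex I genes lay lower in the KO-labelled libraries as a group, and no single one passed the test. Of the 44 members 39 had a negative and 5 a positive log2 fold change, against a negative one for 48.6% of all features tested. The median was -0.38 (0.769-fold), beside 0.012 over all features. Both KO-labelled libraries lay below both WT libraries for 30 members, or 68.2%, against 20.0% of all features. The reverse held for 1 member, against 21.1% of all features. The limma test called 0 members and 0 of all features (0%), and the smallest adjusted p of a member was 0.655, shared by 12 genes. Without KO 2 the same test called 110 features higher and 68 lower, and without KO 1 it called 4 and 17, of which 0 were members in either case. At an unadjusted p under 0.05 there were 12 members lower and 0 higher, against 4.00% and 3.58% of all features. The edgeR quasi-likelihood test and limma-voom on recovered reads gave the same counts of 12 and 0 members, DESeq2 gave 11 and 0, and none of these tools called a member. DESeq2 called 10 of the 3732 features to which it gave an adjusted p (0.268%), and it gave none to 15 members.

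The position of the members depended on the library. KO 1 lay below both WT libraries for 40 of 44 members, against 36.2% of all features, and KO 2 for 30, against 37.1%. KO 1 was the lowest of the 4 libraries for 34 members and KO 2 for 6, beside 25.9% and 27.4% of all features. Relative to the WT mean, members had a median of -0.59 in KO 1 and of -0.25 in KO 2. With KO 1 left out there were 33 negative estimates with a median of -0.25, and with KO 2 left out there were 42 with a median of -0.60. KO 2 exceeded KO 1 for 37 of 44 members, against 48.7% of all features, by a median of 0.32. The median difference between WT 2 and WT 1 was -0.07. Other features with transcripts of 500 to 1000 bases also had a lower median in KO 1 (-0.34) than in KO 2 (-0.08) relative to WT. For the 22 members of that length the medians were -0.66 and -0.34. Spearman's rho of KO 2 minus KO 1 with length was -0.16 over 9390 features and 0.22 over the 44 members. The part of length in the difference between KO 1 and KO 2 was not tested. The 9 measured neuron markers (median 1.88 in KO 1 and -0.23 in KO 2 relative to WT) and the oligodendrocyte lineage markers also separated the KO-labelled libraries, and their part in this difference was not tested.

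**Figure D1:**
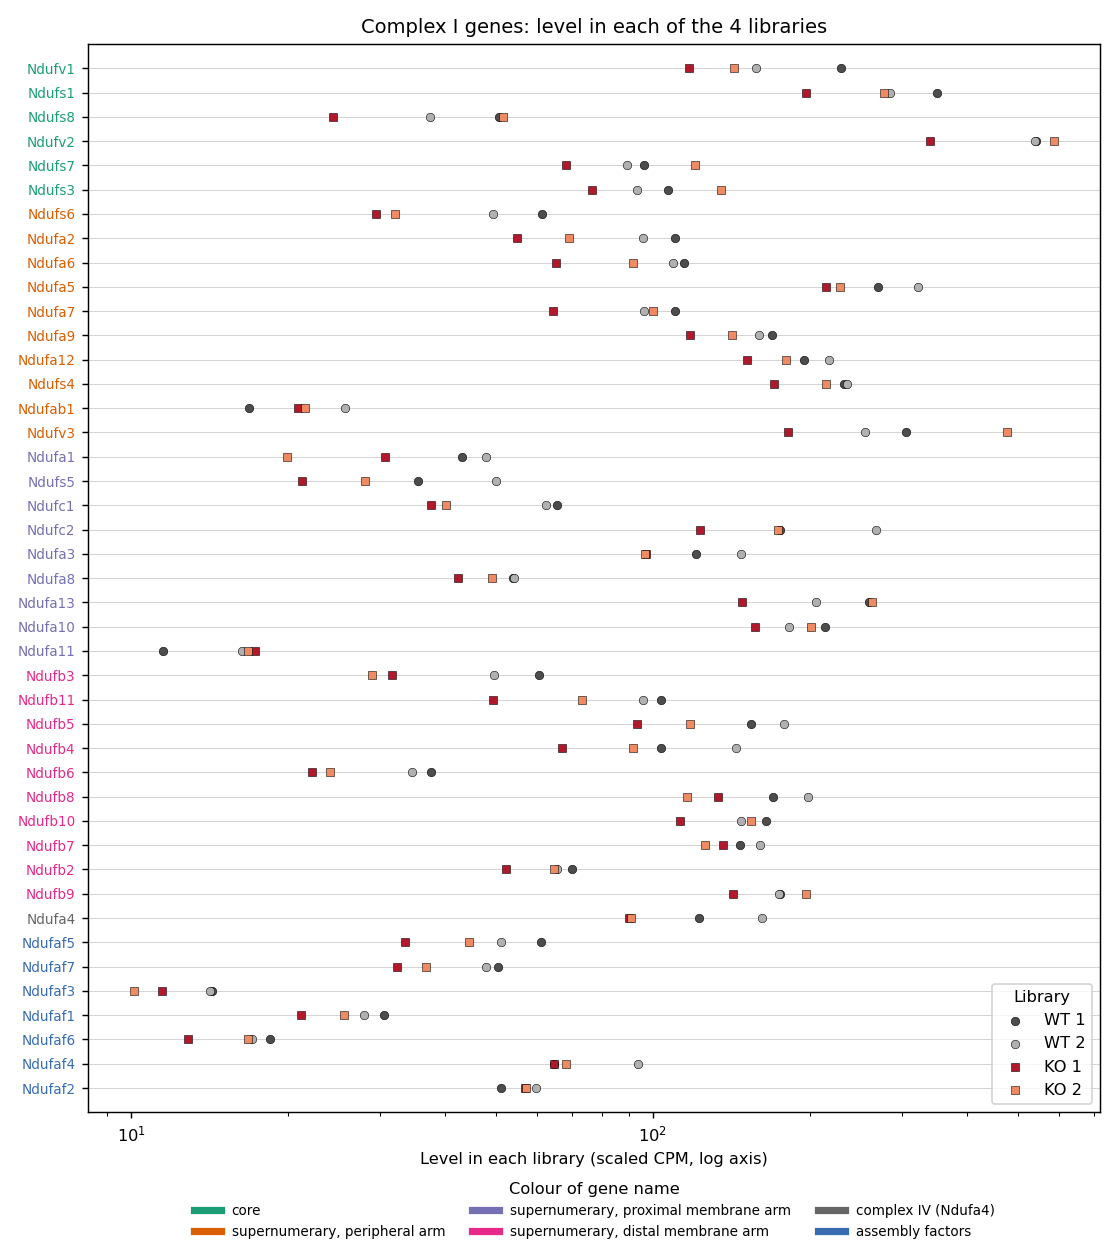
Level of 43 complex I genes in the 4 libraries, in scaled CPM on a log axis; each point is 1 library, and gene names are coloured by place in the complex. KO 1 is the lowest of the 4 points for 33 of the 43 genes drawn.

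The proximal promoters of the members were searched for letters bound by known regulators of nuclear genes for mitochondria. RefSeq sequences (GRCm38.p6) were found for 39 of the 44 members, in 41 entries, and the 250 bases before each start were searched on both strands. The letters GCATGCGC, from the site of NRF1, a transcription factor of respiratory chain genes, occurred in 4 of 41 member promoters (9.76%) and in 2.26% of 32851 promoters of that length. The ETS letters CCGGAAG, read by GABP, occurred in 4 (9.76%, against 6.91%). The SP1 letters GGGCGG occurred in 18 (43.9%, against 32.7%), and the YY1 letters AAGATGG in 0 (against 4.49%). Searched letters may overlap: a palindrome GCGCATGCGC holds the NRF1 letters on both strands and counts once per promoter. A match is a description of letters, not of binding. The 4 promoters with NRF1 letters are shown, with that of Ndufb3, the member with the smallest p, which held none of these motifs; capitals mark any of the searched motifs.
Ndufa6 (chr15:82354292-82354541, minus strand): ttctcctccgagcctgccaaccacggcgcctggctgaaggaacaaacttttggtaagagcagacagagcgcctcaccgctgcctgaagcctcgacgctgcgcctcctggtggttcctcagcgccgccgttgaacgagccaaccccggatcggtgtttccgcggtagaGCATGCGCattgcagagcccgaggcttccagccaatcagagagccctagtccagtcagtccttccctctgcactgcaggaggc
Ndufa8 (chr2:36049339-36049588, minus strand): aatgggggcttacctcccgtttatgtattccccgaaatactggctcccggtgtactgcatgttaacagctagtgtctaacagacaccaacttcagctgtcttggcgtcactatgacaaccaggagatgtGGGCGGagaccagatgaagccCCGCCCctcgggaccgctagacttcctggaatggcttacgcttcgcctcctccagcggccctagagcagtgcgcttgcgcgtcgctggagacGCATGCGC
Ndufa11 (chr17:56717512-56717761, plus strand): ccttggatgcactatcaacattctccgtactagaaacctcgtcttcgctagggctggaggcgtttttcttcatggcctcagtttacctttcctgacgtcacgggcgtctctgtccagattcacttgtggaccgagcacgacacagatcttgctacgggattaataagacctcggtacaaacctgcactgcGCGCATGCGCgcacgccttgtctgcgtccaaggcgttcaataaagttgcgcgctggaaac
Ndufaf4 (chr4:24897833-24898082, plus strand): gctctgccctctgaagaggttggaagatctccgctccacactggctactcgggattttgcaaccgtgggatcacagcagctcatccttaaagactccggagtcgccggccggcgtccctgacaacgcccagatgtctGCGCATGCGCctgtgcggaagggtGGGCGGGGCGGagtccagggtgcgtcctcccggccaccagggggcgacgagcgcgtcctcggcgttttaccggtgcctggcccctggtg
Ndufb3 (chr1:58586147-58586396, plus strand): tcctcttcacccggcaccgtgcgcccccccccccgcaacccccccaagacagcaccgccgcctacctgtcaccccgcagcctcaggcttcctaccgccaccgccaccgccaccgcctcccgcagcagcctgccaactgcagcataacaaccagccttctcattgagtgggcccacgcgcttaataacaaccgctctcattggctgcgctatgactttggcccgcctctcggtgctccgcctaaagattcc

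The 4 genes whose promoters held the NRF1 letters did not share 1 pattern across libraries. Ndufa6, a subunit of the LYR family that helps to bind the acyl carrier protein, stood at 115 CPM in WT 1, 109 CPM in WT 2, 65.3 CPM in KO 1 and 91.5 CPM in KO 2 (log2 fold change -0.53, SE 0.25). Ndufa8, a membrane-arm subunit of the intermembrane space side, stood at 53.9, 54.3, 42.3 and 49.1 CPM in the same order (-0.25, SE 0.23). In both genes the KO-labelled libraries lay below both WT libraries, narrowly so for Ndufa8 in KO 2. Ndufa11, a membrane-arm subunit, was among the members with few reads, at 11.5, 16.3, 17.2 and 16.7 CPM, and was the single member with both KO-labelled libraries above both WT libraries (0.31, SE 0.29). Ndufaf4, an assembly factor, stood at 64.7, 93.6, 64.8 and 68.1 CPM (-0.23, SE 0.26), with WT 2 high and the other libraries close to each other. Adjusted p-values of these 4 genes by limma were 0.659, 0.770, 0.774 and 0.816.

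Core subunits of the peripheral arm were each lowest in KO 1. In KO 2 they ranged from below both WT libraries to above both, by narrow margins in some genes. A division into sets was not tested. Ndufv1, which holds the flavin and oxidises NADH, stood at 229 CPM in WT 1, 157 CPM in WT 2, 117 CPM in KO 1 and 143 CPM in KO 2 (-0.55, SE 0.27, adjusted p = 0.669 by limma). Ndufs1, the largest iron-sulfur subunit, stood at 351, 284, 196 and 277 CPM in the same order (-0.44, SE 0.27). In both genes KO 2 lay just under WT 2, and WT 1 was the highest library.

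In another 4 core subunits KO 2 lay above both WT libraries, narrowly so for Ndufs8. The share of all features was not computed for this count, so it does not set these genes apart. Ndufv2, the partner of Ndufv1, stood at 542 CPM in WT 1, 541 CPM in WT 2, 340.1 CPM in KO 1 and 589 CPM in KO 2 (-0.27, SE 0.32). Ndufs8, which carries a pair of iron-sulfur clusters, stood at 50.7, 37.3, 24.4 and 51.5 CPM (-0.29, SE 0.39). Ndufs7 holds the last iron-sulfur cluster before ubiquinone, and Ndufs3 is a core subunit near it that carries no cluster. Ndufs3 stood at 107, 93.1, 76.5 and 135 CPM (0.03, SE 0.32), and Ndufs7 at 96.3, 89.2, 68.2 and 121 CPM (-0.03, SE 0.31). Of the 7 core subunits KO 1 was the lowest library for 7, against 25.9% of all features. KO 2 exceeded KO 1 for 7, against 48.7% of all features, by a median of 0.79. The group median of the core subunits was -0.29, with -0.69 in KO 1 and 0.12 in KO 2. Leaving out KO 1 turned the sign for Ndufv2 (0.12), Ndufs8 (0.25) and Ndufs7 (0.38). The estimate of Ndufs3 turned negative without KO 2 (-0.39) and without WT 2 (-0.07) and was 0.44 without KO 1.

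**Figure D2:**
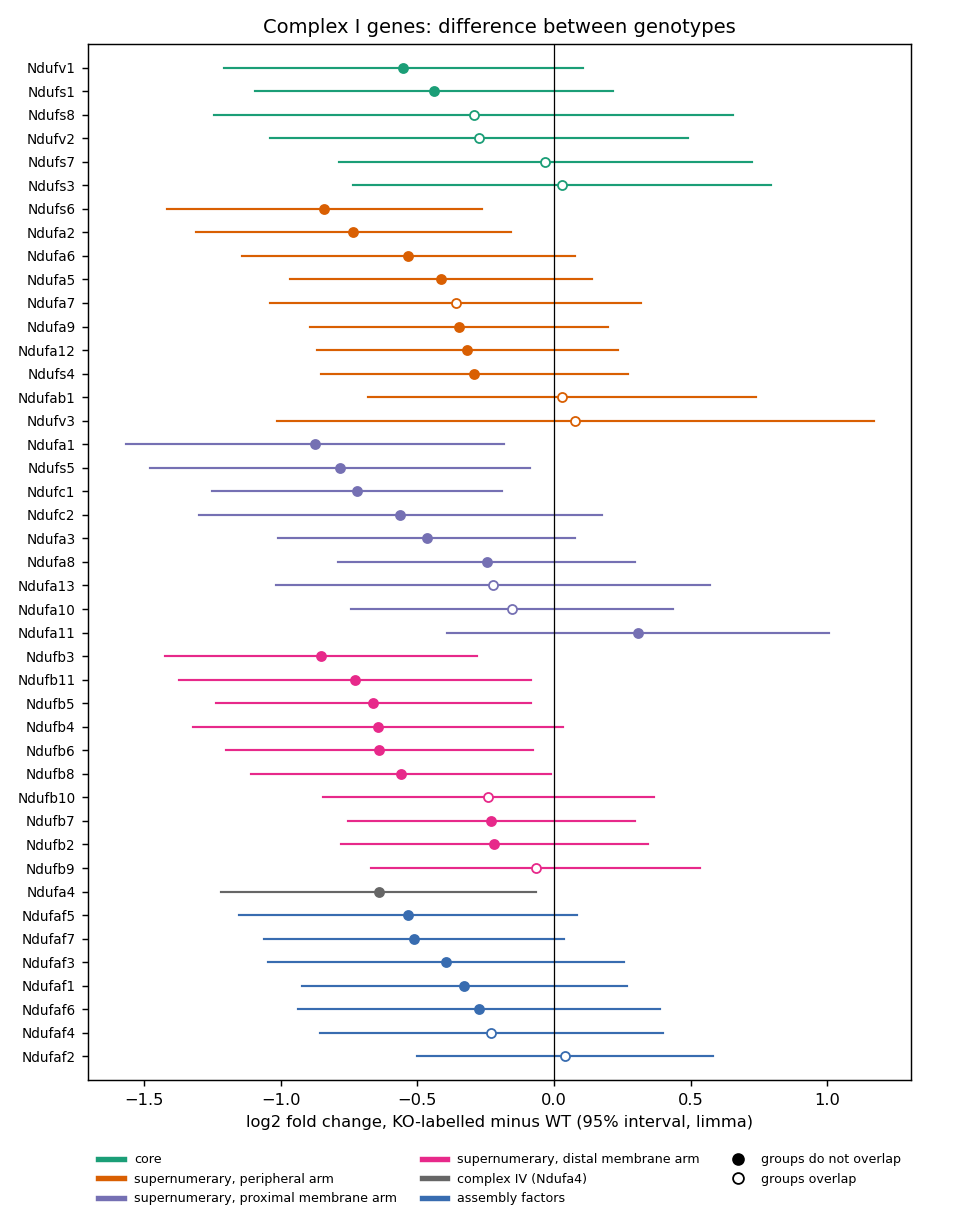
Log2 fold change, KO-labelled minus WT, of 43 complex I genes, with 95% intervals from limma; filled points mark genes whose groups do not overlap. Intervals are not adjusted for the number of features. For 11 of the 43 genes drawn the interval lies below 0, and for 0 genes it lies above. Over all features tested, 4.00% were lower and 3.58% higher at an unadjusted limma p under 0.05. The smallest adjusted p of a member by limma was 0.655.

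Supernumerary subunits held most of the genes with the smallest p, and also made up most of the 44 members. An unadjusted limma p under 0.05 was found for 2 of 10 in the peripheral arm and 3 of 9 in the proximal membrane arm. The counts were 5 of 10 in the distal membrane arm and 1 of 7 for core subunits. Median transcript lengths of these supernumerary lists were 992.5, 683 and 747.5 bases, against 1623 bases for core subunits. The part of length in this ranking was not tested. Ndufb3, a membrane-arm subunit, was measured at 60.4 CPM in WT 1, 49.6 CPM in WT 2, 31.6 CPM in KO 1 and 29.0 CPM in KO 2 (0.554-fold, log2 fold change -0.85, SE 0.24, adjusted p = 0.655). Ndufs6, a zinc-binding subunit next to the iron-sulfur clusters, was measured at 61.4, 49.4, 29.5 and 32.0 CPM in the same order (-0.84, SE 0.24). The KO-labelled libraries lay close together in both genes, well under either WT library. Ndufc1, a small membrane-arm subunit, stood at 65.5, 62.5, 37.5 and 40.2 CPM (-0.72, SE 0.22). Ndufa2, a thioredoxin-like subunit of the peripheral arm, stood at 110.1, 95.6, 55.0 and 69.1 CPM (-0.73, SE 0.24). Ndufc1 had the tightest pairs of these 4 genes, and in none of the 4 did the groups overlap. Ndufa1, an X-linked membrane-arm subunit, was measured at 43.0, 47.9, 30.7 and 19.9 CPM (-0.87, SE 0.29). It had the lowest log2 fold change of any member and, unlike most, its lower value in KO 2.

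In the distal membrane arm, where the Ndufb subunits sit, 10 of 10 measured members had negative estimates and 8 had both KO-labelled libraries under both WT libraries (median -0.60), beside 48.6% and 20.0% of all features. Ndufb5 had 154 CPM in WT 1, 178 CPM in WT 2, 93.1 CPM in KO 1 and 118 CPM in KO 2 (-0.66, SE 0.24). Ndufb11, also X-linked, stood at 104, 95.6, 49.4 and 73.1 CPM (-0.73, SE 0.27), and Ndufb6 at 37.5, 34.6, 22.2 and 24.0 CPM (-0.64, SE 0.23). Each of these genes was lowest in KO 1. Ndufb9 (-0.07, SE 0.25) and Ndufb10 (-0.24, SE 0.25) were the 2 whose groups overlapped. The proximal membrane arm had 8 of 9 members with negative estimates and a median of -0.47. The supernumerary subunits of the peripheral arm had 8 of 10 and a median of -0.35. Ndufa4, which keeps a complex I symbol but is now assigned to complex IV, stood at 123, 162, 89.8 and 90.8 CPM (-0.64, SE 0.24). Without it the 36 remaining subunits had a median of -0.39.

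Several subunits differed more between the KO-labelled libraries than between genotypes. The absolute difference between KO 1 and KO 2 exceeded the absolute fold change for 15 of 44 members. The share of all features was not computed for this count or the next, so neither sets the members apart from other genes. KO 2 stood over 0.75 higher on the log2 scale for 6 members. Ndufv3, an accessory subunit at the NADH-binding tip, was measured at 306, 255, 182 and 478 CPM in WT 1, WT 2, KO 1 and KO 2, a difference of 1.39 between the KO-labelled libraries and a fold change of 0.08 (SE 0.45). Without KO 1 its estimate was 0.77 and without KO 2 it was -0.63. Ndufa13, also known as Grim19, stood at 259, 205, 148 and 263 CPM (-0.22, SE 0.33). The other 4 were the core subunits Ndufs8, Ndufs3, Ndufs7 and Ndufv2. Between the WT libraries, the log2 difference, WT 2 minus WT 1, was -0.54 for Ndufv1 and 0.61 for Ndufab1.

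**Figure D3:**
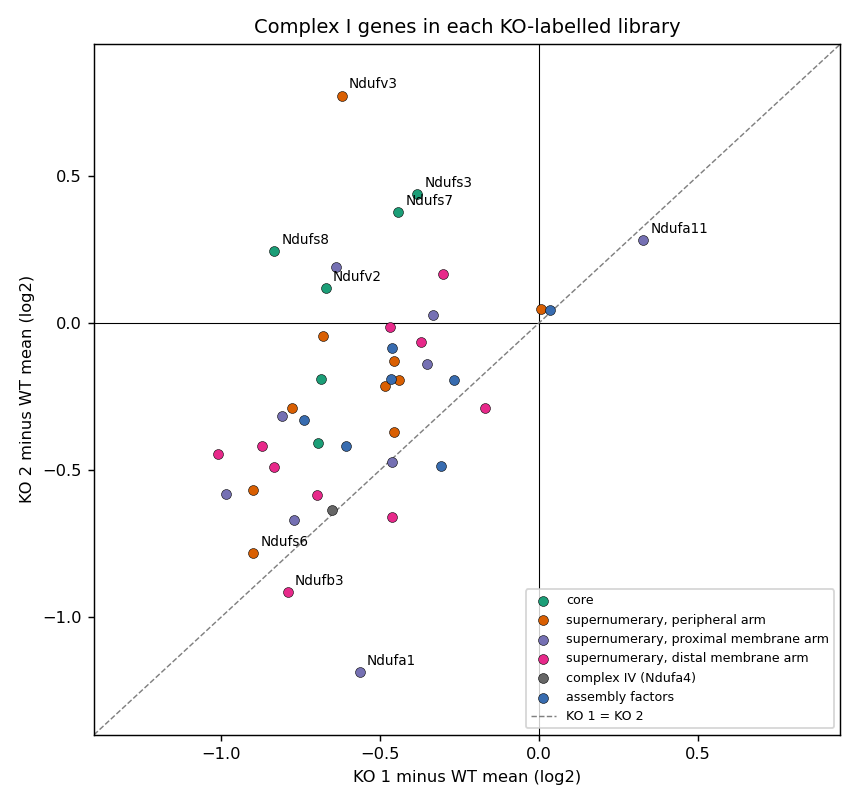
Complex I genes (43) in KO 1 (x axis) and KO 2 (y axis), as log2 difference from the WT mean; both axes share the WT libraries. Points above the dashed line (36 of the 43 genes drawn) were higher in KO 2 than in KO 1, and Ndufv3 lies farthest above it.

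The 7 measured Ndufaf assembly factors had WT means from 14.2 to 79.2 CPM and estimates from -0.53 to 0.04. Ndufaf7, a methyltransferase that acts on the peripheral arm, stood at 50.5, 47.9, 32.3 and 36.8 CPM (-0.51, SE 0.23, adjusted p = 0.657 by limma). Ndufaf5, which hydroxylates Ndufs7, stood at 60.9, 51.3, 33.5 and 44.4 CPM (-0.53, SE 0.26). For both genes the groups did not overlap. Ndufaf3, which binds early intermediates, stood at 14.3, 14.1, 11.5 and 10.1 CPM (-0.40, SE 0.27). Ndufaf1, a factor of early membrane-arm assembly, stood at 30.5, 28.0, 21.2 and 25.6 CPM (-0.33, SE 0.25). Ndufaf6 stood at 18.5, 17.0, 12.8 and 16.7 CPM (-0.27, SE 0.27), with KO 2 close to WT 2. Ndufaf2, a factor of late assembly, stood at 51.2, 59.8, 56.8 and 57.1 CPM (0.04, SE 0.22), with the KO-labelled libraries between the WT ones. In all, 6 of 7 had negative estimates and 5 had KO 1 and KO 2 both under the WT libraries (median -0.33), beside 48.6% and 20.0% of all features. Of 13 listed assembly factors with other symbols 9 were measured and 8 had negative estimates (median -0.30). Timmdc1, which takes part in membrane-arm assembly, stood at 43.7, 37.5, 28.4 and 25.8 CPM (-0.58, SE 0.24), Acad9 at -0.35 (SE 0.23) and Foxred1 at -0.34 (SE 0.23).

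Levels per kilobase of transcript spread widely among subunits of an enzyme that holds 1 copy of nearly all of them. Per length, the WT mean was 6.11 CPM per kb for Ndufab1, with a median of 128 CPM per kb over subunits and 21.8 CPM per kb over Ndufaf genes. Ndufa5 (338 CPM per kb), Ndufc2 (324 CPM per kb) and Ndufv2 (319 CPM per kb) were far above that median. These 3 levels differed by less than the distance between the WT libraries of Ndufc2, at 256 and 391 CPM per kb. Lengths were those of 1 annotated transcript per gene, and those of Ndufb2 (4371 bases) and Ndufab1 (3479 bases) were among the longest. Ndufab1 was also low before division by length, at a WT mean of 21.3 CPM against a median of 134 CPM over subunits. Near-identical copies (at least 95% identity over 50% of the coding sequence) were annotated for 8 members, among them Ndufb3, Ndufs6, Ndufs3, Ndufb11 and Ndufab1. Exons of 18 members overlapped another gene, on the same strand for Ndufb2, Ndufb8 and Ndufb9 and only on the opposite strand for the others. Since the counting rule is not given, including its use of strand, the counts of members with a copy or an overlap are uncertain.

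The other respiratory complexes were set beside complex I. In KO 1 complexes III to V lay below both WT libraries for 44 of 50 genes (88%) and complex I for 90.9% of its members. In KO 2 the share was 19 of 50 (38%) against 68.2%, where 37.1% of all features did so. The medians in KO 2 relative to WT were -0.25 for complex I, -0.18 for complex III, 0.08 for complex IV and -0.03 for complex V. The difference between complexes was not tested. Between genotypes the median was -0.38 for complex I, -0.42 for complex III, -0.17 for complex IV and -0.29 for complex V. Of complexes III to V together, 39 of 50 genes had negative estimates (median -0.19), beside 48.6% of all features. So did 6 of 6 of complex II, the succinate dehydrogenase (median -0.27). The complex II median relative to WT was -0.47 in KO 1 and -0.002 in KO 2. KO 2 lay below both WT libraries for 1 of its 6 genes, against 37.1% of all features. Among the genes of complexes II to V, the iron-sulfur protein Uqcrfs1 of complex III stood at -0.70 (SE 0.27) and Atp5h, of the ATP synthase stalk, at -0.88 (SE 0.31). Uqcrc2 stood at -0.60 (SE 0.22), Cox7a2 at -0.62 (SE 0.26) and Sdhd at -0.46 (SE 0.28). The symbols of complex I subunits encoded in mitochondrial DNA were not found in the table used here.

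**Figure D4:**
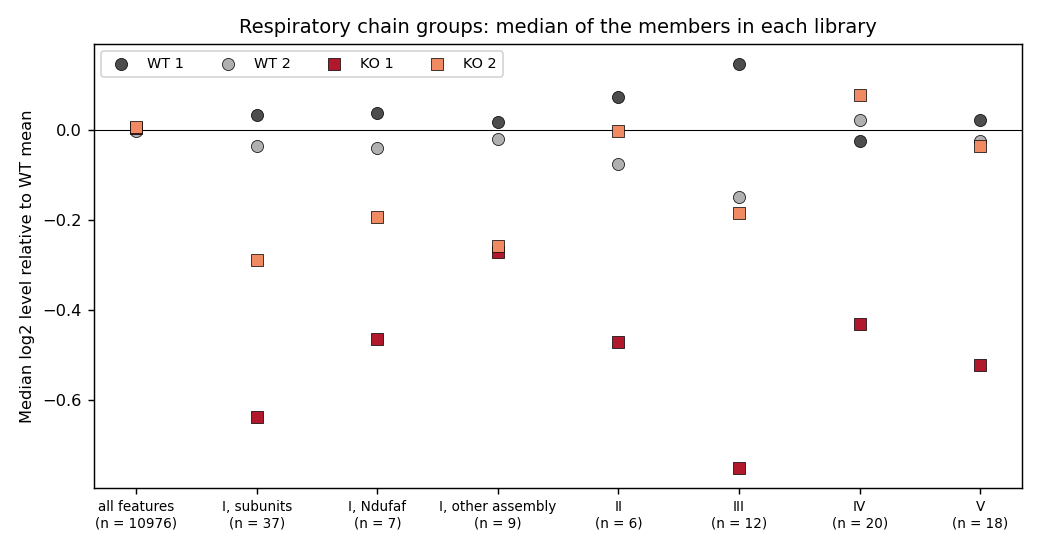
Median over the members of each respiratory chain group of the log2 level relative to the WT mean, with 1 point per library. KO 1 lies below both WT libraries in every group but all features. In KO 2 the median is -0.29 for complex I subunits and -0.19 for Ndufaf genes, beside -0.18 for complex III, 0.08 for IV and -0.03 for V. Assembly factors are drawn apart for complex I and are counted within the other complexes.

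Genes that act upstream of complex I were mixed. Of 14 listed regulators of mitochondrial biogenesis 9 were measured, 6 with negative and 3 with positive estimates (median -0.06). Ppargc1a, the coactivator of respiratory genes, was measured at 26.1, 17.6, 29.1 and 62.0 CPM in WT 1, WT 2, KO 1 and KO 2 (0.99, SE 0.41, adjusted p = 0.656), above both WT libraries in each. Polg, the mitochondrial DNA polymerase, stood at 132, 142, 86.0 and 105 CPM (-0.53, SE 0.23), below them in each. Gabpb1 was at or under 11.4 CPM in all libraries (0.28, SE 0.38). Of 14 listed genes of iron-sulfur cluster assembly 12 were measured and 8 had negative estimates (median -0.13). There Glrx5, a glutaredoxin of cluster transfer, stood at -0.57 (SE 0.23) and the cochaperone Hscb at -0.44 (SE 0.40).

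Transcript length moved with these estimates. The median length was 977 bases for complex I members and 3012 bases for all features with a length. Over 9390 features longer transcripts had higher log2 fold changes (Spearman's rho 0.276), and over the 44 members rho was 0.288; genes are not independent, and all share the same 4 libraries. In the class of 500 to 1000 bases the median was -0.50 for 22 members and -0.23 for the 501 other features, and from 1000 to 2000 bases it was -0.34 for 16 members and -0.12 for 1878 others. With the trend of length removed, 37 members had negative estimates, the median was -0.25, and KO 1 and KO 2 lay under both WT libraries for 25 members. Over the 9390 features in that fit, 51.3% had negative estimates and 20.9% had both KO-labelled libraries under the WT ones. With length and GC content removed together, 37 members had negative estimates, the median was -0.19 and 23 members had both KO-labelled libraries under the WT ones, beside 51.5% and 20.1% of features.

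**Figure D5:**
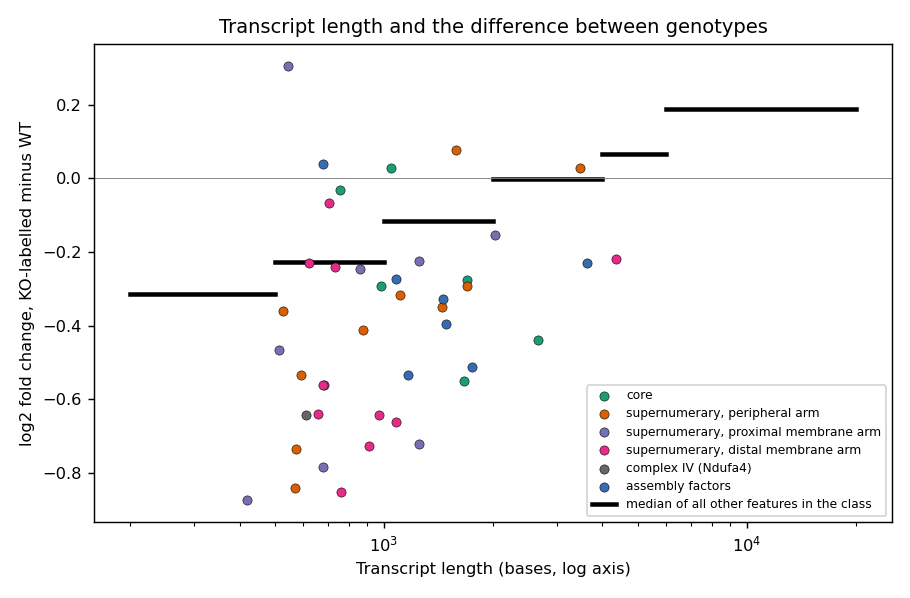
Log2 fold change, KO-labelled minus WT, of complex I genes (points) against transcript length in bases on a log axis, with the median of all other features in each length class (black bars). From 500 to 1000 bases the bar lies at -0.23 and the median of the 22 complex I genes at -0.50.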

How the data were processed

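RNA of 4 libraries (2 WT, 2 labelled Mcph1 KO) was depleted of ribosomal RNA and sequenced strand-specifically with 75-base reads, 4 libraries in 1 lane, per the labels' protocols. The submitters' processing notes name STAR 2.3.0, DESeq 1.12.1, SAMtools 0.1.19, FastQC 0.10.1 and Picard 1.119 without their roles. The build, annotation and counting rule were not given in the sources used here. Each deposited value is a signal, that is, read counts of a feature divided by 1 factor per library. In each library 100% of values were whole multiples of 1 step within 0.01, and these steps gave the recovered reads. In WT 2, where no feature has 1 read, the step came from the spacing between values. Deposited totals differed 4.10-fold, and the median fold change was -1.25 unscaled.

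TMM scaling and the filterByExpr filter (minimum 10) came from edgeR 4.0.16. In R 4.3.3, log2 of the scaled value plus 1 went into limma 3.58.1, whose prior variance followed the mean, and two-sided p-values were adjusted over all features. Count tests (edgeR, DESeq2 1.42.0, limma-voom) on recovered reads, other scalings, filters and pseudocounts, a replicate block, each library left out and a removed length trend were alternatives. The main limma fit and the count tests were first run on simulated counts, while the trend removals and block fits were not. That run set a limit only on the error of fold changes, with none on true changes missed or on false calls. It is therefore not used here as a measure of power. Lengths came from GENCODE M21, promoters from RefSeq. A level of 3 reads corresponds to at most 0.502 CPM, and intervals over pools may measure technical spread. Members and lists were chosen with earlier results of these data known. Some listed genes are not reported individually here and are not drawn, but counts and medians include them. For the rest, every library is given for the 8 subunits with the smallest p, the core subunits and Ndufaf genes, and of other lists up to 3 genes with the smallest p are named.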

Additional observations from a re-analysis of the deposited data

How the results depend on the processing

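In the main fit scaling came before the filter, so a changed filter leaves every estimate as it was. Its unchanged directions say nothing about stability. Over the 16 alternatives other than the block fits, changed filters included, 672 of 704 estimates of single members kept their direction and 32 reversed. Of the 44 members 31 reversed under none. No member passed the threshold under these or the 2 block fits (lowest adjusted p 0.115). The length-with-GC removal and the crossed pairing were chosen after seeing the data. Unscaled deposited values gave medians of -1.64 for all members, -1.68 for subunits and -1.60 for assembly factors and 6 features called lower, and reversed Ndufaf2 (-1.23), Ndufv3 (-1.20), Ndufa11 (-0.96), Ndufs3 (-1.24) and Ndufab1 (-1.24); those values are not on a common scale. DESeq2 called 2 features higher and 8 lower. Ndufs7 reversed with upper-quartile scaling (0.0093), edgeR's quasi-likelihood test (0.022), DESeq2 (0.017), the length trend removed (0.20) and length with GC removed (0.093). Ndufab1 reversed with limma-voom (-0.024), edgeR (-0.014), DESeq2 (-0.021) and the length trend removed (-0.0048). The length trend also reversed Ndufb9 (0.18, and 0.15 with GC) and Ndufb7 (0.041), and length with GC moved the assembly factor median to -0.13. With upper-quartile scaling, the groups of 26 members did not overlap downwards, and the share of all features under that scaling was not computed. The cause of these moves was not tested.

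With each library left out in turn, where the lone library of a group is assumed to vary like the others, 0 to 110 features were called higher and 0 to 68 lower. The highest counts came without KO 2, and without KO 1 there were 4 higher and 17 lower, of which 0 were members. Medians ranged from -0.60 to -0.25 for members, -0.65 to -0.29 for subunits and -0.47 to -0.19 for assembly factors. Estimates that changed sign ranged from -0.34 to 0.028 (Ndufa10), -0.45 to 0.38 (Ndufs7), -0.071 to 0.15 (Ndufaf2), -0.31 to 0.17 (Ndufb9), -0.63 to 0.77 (Ndufv3), -0.68 to 0.12 (Ndufv2), -0.84 to 0.25 (Ndufs8), -0.39 to 0.44 (Ndufs3), -0.50 to 0.036 (Ndufaf4), -0.28 to 0.33 (Ndufab1) and -0.65 to 0.19 (Ndufa13). Same-numbered libraries share a number in the titles and nothing in the labels pairs them, and their deviations correlated at -0.30. With the replicate number as a block, and with the crossed pairing, limma called 0 features and 0 members. In this balanced design a block leaves every estimate as it was (39 negative, median -0.38), so those values say nothing about stability. The smallest count of a member was 57 reads, in KO 2.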
